A study of Mus musculus with 2 samples.

Results

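The Psm genes encode the subunits of the proteasome, the particle that degrades ubiquitin-tagged proteins, together with its activators, an inhibitor and several assembly factors. Members were taken as the genes whose name starts with Psm, a letter from a to g and a digit, and which have at least 1 protein-coding transcript in the annotation. This gave 50 genes among the 55536 Ensembl genes in the tables. A further 4 pseudogenes matched by name alone and were left out. One of the 50, Psmc3ip, matches by name only: it encodes Hop2, a protein of meiotic recombination, and is not a proteasome subunit.

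RNA was measured in the heart of female B6CASTF1/J mice, the first-generation cross of the inbred strains C57BL/6J and CAST/EiJ, at an age of 18 to 20 months. The series holds 1 group of 2 total RNA-seq libraries, biological replicates 1 and 2, each made from 300 ng of RNA after removal of ribosomal RNA. The labels list separate biosamples but 1 donor entry for both libraries, and part of their spread may thus be technical. With 1 group there was no contrast between conditions, and no p-values were computed.

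A proteasome is built from a barrel, the 20S core, and caps on its ends. The outer rings of the core, made of alpha subunits, gate the entrance, and the inner rings of beta subunits hold the catalytic sites. The 19S cap contains a ring of ATPases that unfold and feed in the substrate, and non-ATPase subunits that bind ubiquitin, remove it or hold the cap together. Immune cells and cells exposed to interferon gamma replace the 3 catalytic beta subunits by immune counterparts, which changes the peptides that are made for antigen presentation. In heart muscle the particle removes worn and misfolded proteins, including those of the contractile apparatus.

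Levels are TPM of the gene table, transcript abundances corrected for transcript length and scaled to 1 common sum, which allow levels of different genes to be compared. Expected counts in that table summed to 35897521 in replicate 1 and 36926429 in replicate 2. A count of 0 at these depths allows up to 3 counts, or 0.0836 and 0.0812 CPM (counts scaled to the library total). Heart muscle markers were abundant in both libraries: the 6 cardiomyocyte genes together reached 31064 and 30032 TPM in replicates 1 and 2, with Myl2, the ventricular myosin light chain, the highest. Summed endothelial markers, at 134 and 116 TPM in replicates 1 and 2, differed less between the libraries than those of several other cell types. Summed leukocyte markers were at 106 and 236 TPM in replicates 1 and 2, adipocyte markers at 35.3 and 257 TPM, erythroid markers at 16068 and 7566 TPM, and 3 airway genes at 0 and 214 TPM. Markers of thymus epithelium were at 0 in both libraries.

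The family as a whole was broadly present. Of the 50 members, 47 reached 1 TPM or more in both libraries. The members took up 0.459% of the TPM of nuclear protein-coding genes in replicate 1 and 0.497% in replicate 2 (0.478% ± 0.027, SD, n = 2). Over the 31 constitutive subunits of the core and the cap the median was 45.1 and 47.9 TPM in replicates 1 and 2. Every one of the 31 lay between 19.8 and 91.1 TPM in replicate 1 and between 21.4 and 100.1 TPM in replicate 2, so no constitutive subunit of either the core or the cap was lacking or near its detection limit.

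**Figure D1:**
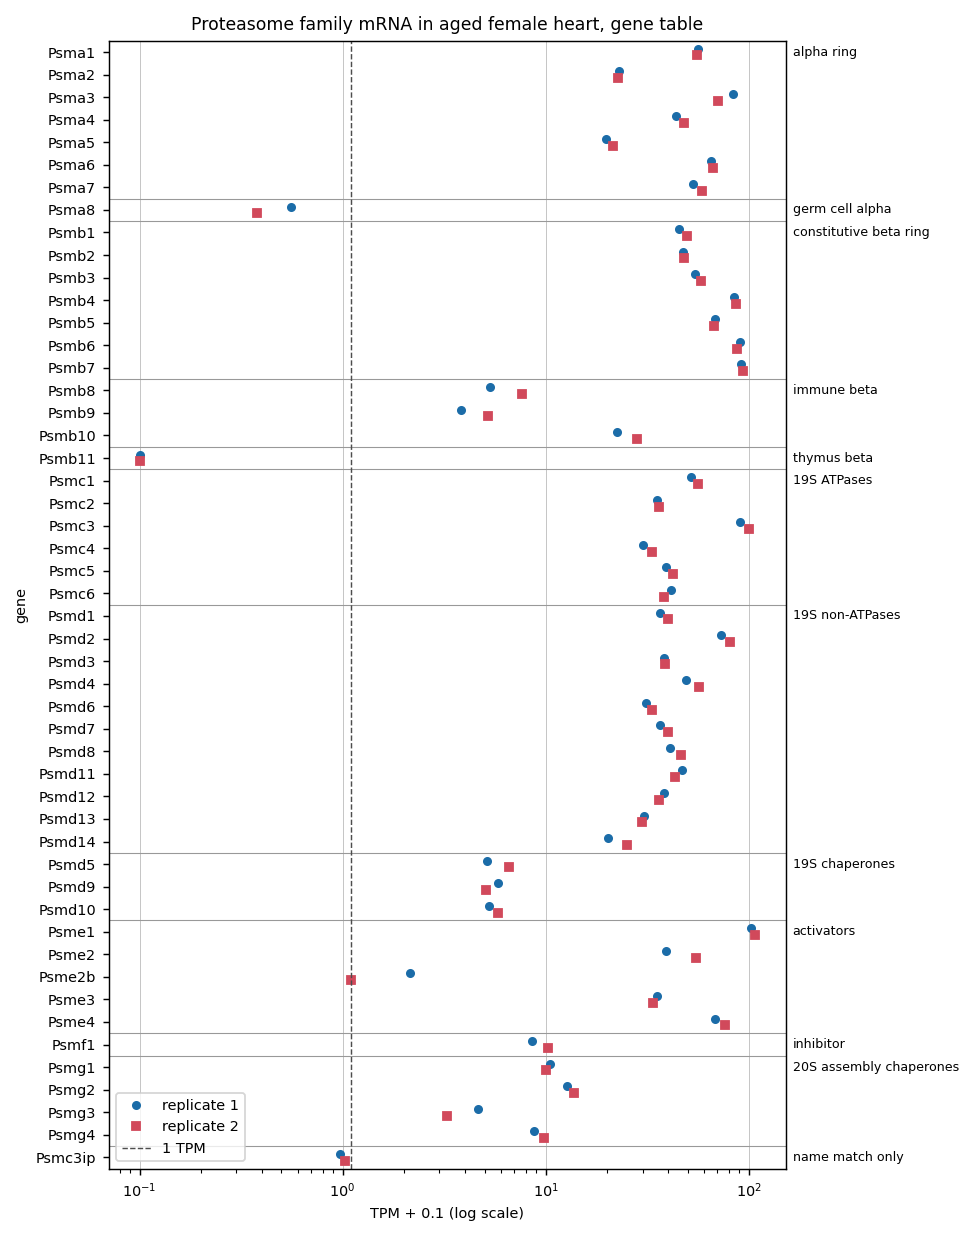
TPM plus 0.1 (log scale) of each of the 50 members in replicate 1 (circles) and replicate 2 (squares), grouped by role, with a dashed line at 1 TPM. Constitutive core and cap subunits lie between 19.8 and 100.1 TPM in both libraries, the immune subunits Psmb8 and Psmb9 and the assembly chaperones mostly lie lower, and Psmb11 is at 0 in both.

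The 7 alpha subunits, whose tails form the gate of the core, had a median of 52.9 and 55.5 TPM in replicates 1 and 2. Psma3 (alpha7) was the highest over all transcripts, with 83.2 and 70.8 TPM in replicates 1 and 2, but its coding transcripts had 47.3 and 35.9 TPM. Psma6 (alpha1) followed with 64.8 and 66.5 TPM, and on coding transcripts alone, at 63.3 and 65.8 TPM, it was above Psma3. Psma1 (alpha6) at 56.1 and 55.5 TPM and Psma7 (alpha4) at 52.9 and 58.6 TPM exchanged places between the libraries, and so cannot be ranked against each other. Psma4 (alpha3) had 43.8 and 47.9 TPM in replicates 1 and 2. The lowest alpha subunits were clearly set off from these: Psma2 (alpha2) had 22.9 and 22.6 TPM, and Psma5 (alpha5) had 19.8 and 21.4 TPM. Both values carry a limit of their own. Of the distinct 31-nt stretches of Psma5 transcripts, 58.7% also occur in another annotated gene, mostly in Gm8394, so reads from it could be split, and Psma2 was higher in the gene table than in the second transcript table described below.

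Among the 7 constitutive beta subunits the median was 68.5 and 67.5 TPM in replicates 1 and 2. The 3 catalytic ones were at or above that median. Psmb7 (beta2), which carries the trypsin-like activity, had 91.1 and 93.5 TPM in replicates 1 and 2. Psmb6 (beta1), the caspase-like subunit, had 90.6 and 87.7 TPM. Psmb5 (beta5), the chymotrypsin-like subunit, had 68.5 and 67.5 TPM. These 3 lay at percentiles 94.5, 94.3 and 92.7 of the 11341 expressed nuclear protein-coding genes. Of the 4 subunits without a catalytic site, Psmb4 (beta7) reached 84.2 and 86.7 TPM in replicates 1 and 2. Psmb3 (beta3) had 54.3 and 58.3 TPM. The remaining pair was close together: Psmb2 (beta4) had 47.4 and 48.0 TPM, and Psmb1 (beta6) had 45.1 and 49.8 TPM, with the lower of the pair changing between the libraries. Psmb5 has the largest overlap with other genes among the core subunits, since 71.7% of its 31-nt stretches also occur elsewhere and 59.8% occur in Gm3375.

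Although each ring of the core holds every subunit once, the mRNAs were not at equal levels. Across the 14 constitutive core subunits the highest mRNA was 4.61 times the lowest in replicate 1 and 4.37 times in replicate 2, and the coefficient of variation was 38.9% and 36.4%. The alpha ring contributed most to this range, because its lowest members Psma2 and Psma5 were below every constitutive beta subunit; within the constitutive beta ring the ratio was 2.02 and 1.95.

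The immune beta subunits were each below their constitutive counterparts, and Psmb8 and Psmb9 were low in this tissue. Psmb8 (beta5i), the counterpart of Psmb5, had 5.21 and 7.59 TPM in replicates 1 and 2. Psmb9 (beta1i), the counterpart of Psmb6, had 3.72 and 5.10 TPM. Psmb10 (beta2i), the counterpart of Psmb7, had 22.2 and 28.2 TPM. Psmb10 was thus the highest of the 3 in each library, and over all transcripts it was near the lowest constitutive subunits such as Psma2 and Psma5. On coding transcripts alone Psmb10 had 8.98 and 10.9 TPM in replicates 1 and 2. That was below Psma2, at 22.9 and 22.6 TPM, and Psma5, at 19.8 and 21.4 TPM. Over all transcripts each of the 3 immune subunits was higher in replicate 2 than in replicate 1. In whole tissue a smaller number of expressing cells and less RNA per cell cannot be told apart.

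Set against its constitutive counterpart, each immune subunit was lower in both libraries by far more than the libraries differed. The log2 ratio of TPM plus 0.1, Psmb8 over Psmb5, was -3.69 and -3.14 in replicates 1 and 2 and averaged -3.41 ± 0.39 (SD, n = 2), which makes Psmb8 10.7-fold lower. Psmb9 over Psmb6 gave -4.57 and -4.08, with a mean of -4.32 ± 0.35, or 20.0-fold lower. Psmb10 over Psmb7 gave -2.03 and -1.73, with a mean of -1.88 ± 0.22, or 3.67-fold lower. Expressed as a share, Psmb8 stood at 7.74% of Psmb5 in replicate 1 and 11.4% in replicate 2, Psmb9 at 4.21% and 5.92% of Psmb6, and Psmb10 at 24.5% and 30.2% of Psmb7. With all transcripts summed, the 3 immune subunits did not stand at 1 common fraction of their counterparts. Together they made up 11.1% of the TPM of the 6 catalytic genes in replicate 1 and 14.1% in replicate 2 (12.6% ± 2.16, SD, n = 2). The counts behind the low values were small, 142 and 211 for Psmb8 and 73 and 126 for Psmb9.

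**Figure D2:**
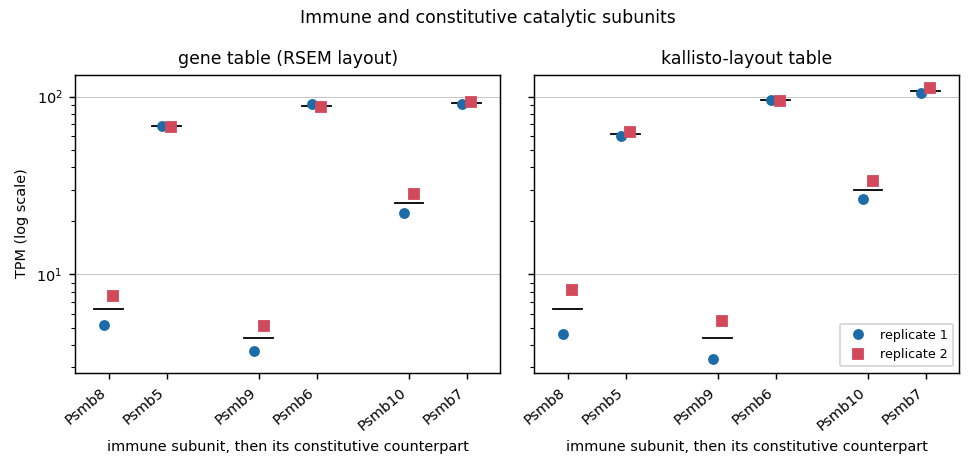
TPM (log scale) of each immune subunit and, to its right, its constitutive counterpart in the gene table (left panel) and in the kallisto-layout table (right panel), with replicate 1 as circles, replicate 2 as squares and the mean as a bar. In both tables and both libraries the immune subunit lies below its counterpart, least so for Psmb10, at 24.5% and 30.2% of Psmb7 in the gene table.

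How much of the immune subunits' signal came from coding mRNA differed between them. For Psmb10 the coding transcript Psmb10-201 took 39.4% of the gene's TPM (mean of both libraries), while Psmb10-205, which keeps an intron, took 32.0% and Psmb10-203, a processed transcript without a coding sequence, took 23.0%. In the quantification behind the gene table, that was the lowest coding share among the 47 members at a mean of 1 TPM or more. In the second transcript table the coding share of Psmb10 was 47.7% and 44.5% in replicates 1 and 2. There it was above Psma3, at 17.3% and 2.40%, and Psmc6, at 20.7% and 19.8%. For Psmb8 the coding share was 50.3%, with 40.2% on the intron-retaining Psmb8-205. The second transcript table placed 90.1% and 89.6% of Psmb8 on coding transcripts in replicates 1 and 2, so for this gene the share depended on the quantification. With coding transcripts alone, in the quantification behind the gene table, the log2 ratio was -4.38 for Psmb8 over Psmb5 and -3.21 for Psmb10 over Psmb7. Both were lower than with all transcripts, and Psmb9 over Psmb6 gave -4.43. In that quantification Psmb8 and Psmb9 thus stood close to the same fraction of their counterparts. However, it placed 0 TPM on the coding transcript Psmb8-201, which took 58.3% of the gene in the second transcript table (mean of both libraries). Coding-only ratios were not computed in that second table, so the closeness may depend on the quantification. The immune share of the catalytic TPM was 5.94% in replicate 1 and 7.09% in replicate 2 on the coding transcripts behind the gene table.

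The immune genes have a particular place in the genome. In the mm10 build, Psmb8 lies on chromosome 17 from 34197721 to 34201454 and Psmb9 from 34181987 to 34187764, within the class II region of the major histocompatibility complex and with 9956 bp between them. They alternate with the peptide transporter genes Tap1 and Tap2. Psmb9 and Tap1 run on opposite strands and overlap by 212 bp, and the sources used here do not state the strand setting of the quantification, so reads from that overlap could belong to either gene. Psmb10 lies apart on chromosome 8 from 105935735 to 105938444. The longest annotated proteins of the pairs align with 65.2% identical residues for Psmb8 and Psmb5, 61.6% for Psmb9 and Psmb6 and 57.9% for Psmb10 and Psmb7, and at most 0.38% of the 31-nt stretches of an immune subunit occur in another gene. At that length and on the transcript strand, the immune subunits thus shared almost no sequence with other genes. The opposite strand was not searched, so the overlap of Psmb9 with Tap1 does not enter these shares.

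Proteasome subunit genes are known to be raised together by the transcription factor Nfe2l1 through antioxidant response elements, whose core reads TGACNNNGC. RefSeq start sites (GRCm38.p6, the assembly of mm10) were matched for 42 of the 50 members, and the 250 bases before each start were searched on both strands. The core letters occurred before 5 of the 42 members (11.9%), against 10.16% of all 32851 windows of the same length, so at this length their share was close to that of other genes. The 5 were Psmb5, Psmb6, Psmc6, Psmd12 and Psmd9. None of the 3 immune genes had a match. Shown are the windows of the catalytic genes Psmb5 and Psmb6, which have a match, and of Psmb10, which has none, without bases that fall in an annotated exon; the windows of Psmb8 and Psmb9 lie in annotated exons. Capitals mark the matched letters, and all 3 run 5′ to 3′ on the strand of the gene.
Psmb5, chr14:54618023-54618245, minus strand: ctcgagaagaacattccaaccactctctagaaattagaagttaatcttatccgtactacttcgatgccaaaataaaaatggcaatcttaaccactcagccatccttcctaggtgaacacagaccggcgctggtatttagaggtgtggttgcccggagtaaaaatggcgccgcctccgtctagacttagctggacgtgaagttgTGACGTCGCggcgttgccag
Psmb6, chr11:70525107-70525356, plus strand: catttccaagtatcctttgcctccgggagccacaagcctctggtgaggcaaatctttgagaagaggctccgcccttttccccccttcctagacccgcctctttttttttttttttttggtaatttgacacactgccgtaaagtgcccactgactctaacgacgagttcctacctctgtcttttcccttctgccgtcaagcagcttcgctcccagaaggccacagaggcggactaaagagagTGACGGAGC
Psmb10, chr8:105938445-105938642, minus strand: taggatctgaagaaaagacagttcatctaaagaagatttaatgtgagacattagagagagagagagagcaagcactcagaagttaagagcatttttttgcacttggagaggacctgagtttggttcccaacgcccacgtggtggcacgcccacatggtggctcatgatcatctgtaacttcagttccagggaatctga
In Psmb6 the match lies directly before the start, in Psmb5 it begins 47 bases before it. CCAAT occurred before 15 members (35.7%) and in 33.85% of all windows. A match is a run of letters and does not show that a factor binds there.

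Forms of the core that belong to other tissues were at or near 0. Psma8 (alpha4s), which replaces Psma7 in male germ cells, had 0.46 and 0.28 TPM in replicates 1 and 2, from 19 and 13 counts, and 2 of the 3 germ cell markers were at 0 in both libraries. Psma7 stood 94.6-fold above Psma8 in replicate 1 and 154-fold above it in replicate 2. Their longest proteins are 84.3% identical. Psmb11 (beta5t), the catalytic subunit of thymus cortical epithelium, had no counts in either library in the gene table, although its gene lies only 3410 bp from Psmb5 on chromosome 14. In the second transcript table it had 0.036 and 0.045 TPM in replicates 1 and 2. Psmc3ip was also under 1 TPM, at 0.87 and 0.93 in replicates 1 and 2. Of the 4 pseudogenes left out, 3 had no counts in the gene table and Psmb5-ps had 1 count in replicate 2.

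The 6 ATPases of the cap had a median of 40.1 and 40.2 TPM in replicates 1 and 2. Psmc3 (Rpt5) was the highest with 90.8 and 100.1 TPM in replicates 1 and 2. Psmc4 (Rpt3) was the lowest over all transcripts with 30.0 and 33.1 TPM. On coding transcripts alone Psmc6 (Rpt4) was lower, at 23.2 and 21.6 TPM, against 29.0 and 30.3 TPM for Psmc4. Although the ATPases sit side by side in 1 ring, over all transcripts the highest was 3.03 times the lowest in replicate 1 and 3.02 times in replicate 2. The other 4 lay between: Psmc1 (Rpt2) had 52.1 and 55.9 TPM, and Psmc2, Psmc5 and Psmc6 stayed between 35.5 and 42.2 TPM.

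The 11 non-ATPase subunits had a median of 38.1 and 39.8 TPM in replicates 1 and 2. Psmd2 (Rpn1), a large scaffold that docks ubiquitin shuttles, led with 73.1 and 80.9 TPM in replicates 1 and 2. Psmd14 (Rpn11), the deubiquitinase that cuts the ubiquitin chain off the substrate, was the lowest over all transcripts with 20.3 and 25.2 TPM. On coding transcripts alone Psmd13 (Rpn9), at 17.47 and 19.35 TPM, was slightly below Psmd14, at 18.01 and 19.77 TPM. Over all transcripts the highest subunit was 3.61 times the lowest in replicate 1 and 3.21 times in replicate 2. Between them lay Psmd4 (Rpn10), a ubiquitin receptor, with 49.1 and 56.7 TPM, and 8 others between 29.8 and 46.7 TPM.

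Assembly chaperones, which help to build the particle and are not part of it when finished, were lower than its subunits. The 3 chaperones of the cap base, Psmd5, Psmd9 and Psmd10 (gankyrin), had a median of 5.18 and 5.75 TPM in replicates 1 and 2. Psmd5 had 5.04 and 6.49 TPM, Psmd9 had 5.73 and 5.0 TPM, and Psmd10 had 5.18 and 5.75 TPM. These 3 were not separated beyond the spread between the libraries. The 4 chaperones of the alpha ring, Psmg1 to Psmg4, had a median of 9.53 and 9.82 TPM in replicates 1 and 2. Psmg2 was the highest of them with 12.6 and 13.8 TPM, and Psmg3 the lowest with 4.55 and 3.16 TPM. Each of the 7 chaperones was below the lowest constitutive subunit of the particle in both libraries. Pomp, a maturation factor of the beta ring outside the name rule, was at the level of the subunits, with 60.2 and 66.5 TPM in replicates 1 and 2.

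Activators bind the ends of the core in place of the 19S cap. Psme1 (PA28 alpha) was the highest of all 50 members over all transcripts, with 102.9 and 107.5 TPM in replicates 1 and 2. Its coding transcripts had 65.6 and 68.8 TPM, below those of Psmb7 at 91.0 and 93.4 TPM. Psme2 (PA28 beta), its partner in the same interferon-inducible ring, had 38.9 and 55.1 TPM. The 2 genes lie 5911 bp apart on chromosome 14, and Psme1 stood 2.64-fold above Psme2 in replicate 1 and 1.95-fold above it in replicate 2. PA28 was therefore not low in the way the immune catalytic subunits Psmb8 and Psmb9 were, even though interferon gamma is known to raise all of them. Psme4 (PA200), known for degradation of acetylated histones, had 68.2 and 76.0 TPM in replicates 1 and 2. Psme3 (PA28 gamma), a nuclear activator, had 35.1 and 33.6 TPM, so that Psme4 was 1.94-fold and 2.26-fold above it. Psme2b had 2.05 and 1.00 TPM. The longest protein annotated for Psme2b is identical to that of Psme2 over all 239 residues, and 78.4% of its 31-nt stretches occur elsewhere, nearly all of them in Psme2. How reads were split between them is uncertain. Psmf1 (PI31), named as an inhibitor of the core, had 8.43 and 10.2 TPM in replicates 1 and 2.

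Genes of the pathway outside the family were examined as fixed lists. Nfe2l1, the transcription factor that raises subunit genes when proteasome activity falls, had 162 and 178 TPM in replicates 1 and 2, above every Psm gene. The protease Ddi2 and the glycanase Ngly1, which process the Nfe2l1 protein, had 13.3 and 12.9 TPM and 12.8 and 12.0 TPM in replicates 1 and 2. Its relative Nfe2l2 had 24.6 and 24.0 TPM, and Nfe2l3 had 0 and 0.07 TPM. Of 15 partners of the cap and ubiquitin shuttles, 14 were matched, and all 14 were at 1 TPM or more with a median of 33.6 TPM in each library. Vcp, the segregase that extracts ubiquitinated proteins from membranes and complexes, was the highest of these with 95.2 and 106 TPM. Uchl5, a deubiquitinase of the cap, was the lowest with 7.17 and 8.19 TPM. Akirin2, which brings proteasomes into the nucleus, had 24.0 and 24.3 TPM.

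The libraries were then compared, with 1 library on each side and no replicate check. Across the 47 members at a mean of 1 TPM or more, the median log2 ratio of replicate 1 over replicate 2 was -0.10, against -0.02 over all 12510 genes at that level. Of the 47 members, 14 were higher in replicate 1, and of all genes 45.7% were. Scaling moved this count: 5 members were higher in replicate 1 in the second transcript table, 9 with TPM rescaled over nuclear protein-coding genes and 8 with expected counts per library total. The share of all genes higher in replicate 1 was 34.5%, 38.1% and 39.4% under the same settings. On the scale of TPM plus 0.1 no member was 2-fold or more apart, while 4.23% of all genes were; without the added 0.1, Psme2b was, and 4.51% of all genes. A level 25% or more higher in either library than in the other was seen for 7 of the 47 members, and for 26.9% of all genes, so the members did not exceed the background. Over the 50 members the log2 values of the libraries had a Pearson correlation of 0.993, as a description across genes that share both libraries.

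The 3 immune subunits were among those 7, all lower in replicate 1. In expected counts per library total, where intervals are exact 95% intervals that cover counting error only, the ratio of replicate 1 over replicate 2 was 0.69 for Psmb8 (0.56 to 0.86). It was 0.60 for Psmb9 (0.44 to 0.80) and 0.79 for Psmb10 (0.70 to 0.90). Each of these intervals lies below 1. On coding transcripts alone, in the quantification behind the gene table, Psmb9 had 3.66 and 3.67 TPM in replicates 1 and 2, with no difference there. In the second transcript table, coding transcripts held 91.1% of its 3.34 TPM in replicate 1 and 84.1% of its 5.48 TPM in replicate 2. There a difference thus remained. Their constitutive counterparts differed less, and the log2 ratio of TPM over the constitutive beta ring had a median of -0.04, against -0.44 over the immune subunits. Leukocyte markers moved the same way: 11 of the 12 were lower in replicate 1, their median log2 ratio was -1.76, and 9 of the 12 reached 1 TPM in each library. Ptprc, the common leukocyte antigen, had 2.19 and 7.28 TPM in replicates 1 and 2. The count intervals of Cd68, Adgre1 and C1qa include 1. All 4 adipocyte genes (median -3.26) and all 3 airway genes (-8.29) were also lower in replicate 1. All 3 erythroid, 4 endothelial and 6 cardiomyocyte genes were higher there, as were 45.7% of all genes. Among 7 interferon and antigen presentation genes, 5 were lower in replicate 1 and 1 was higher, with a median of -0.37. In that list B2m, the light chain of class I molecules, had 82.1 and 115.7 TPM, and interferon gamma itself (Ifng) was at 0 in both libraries. The part of leukocyte or other cell content in the difference of the immune subunits was not tested.

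The other 4 of the 7 members gave a mixed picture. Psme2 was lower in replicate 1, at a TPM ratio of 0.71, but its count ratio was 0.88 (0.79 to 0.97). Psmd5 was lower in replicate 1, at a TPM ratio of 0.78, but its count ratio was 0.94 (0.82 to 1.09), an interval that includes 1. For these 2 genes TPM and counts thus differed in size. In Psme2, an intron-retaining transcript of 185 nt (Psme2-203) took 9.68% of the gene's TPM in replicate 1 and 26.6% in replicate 2. Psmg3 was higher in replicate 1, with a count ratio of 1.31 (0.95 to 1.80). Psme2b was higher in replicate 1 as well, with a count ratio of 1.96 (1.15 to 3.45), from 42.1 and 21.7 expected counts. In all, 23 of the 47 members had a count interval that excludes 1, and of all genes 45.0% had, with intervals that cover counting error only. Psme4 (0.88, 0.85 to 0.90) and Psme3 (1.12, 1.05 to 1.20) were among them, in opposite directions.

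**Figure D3:**
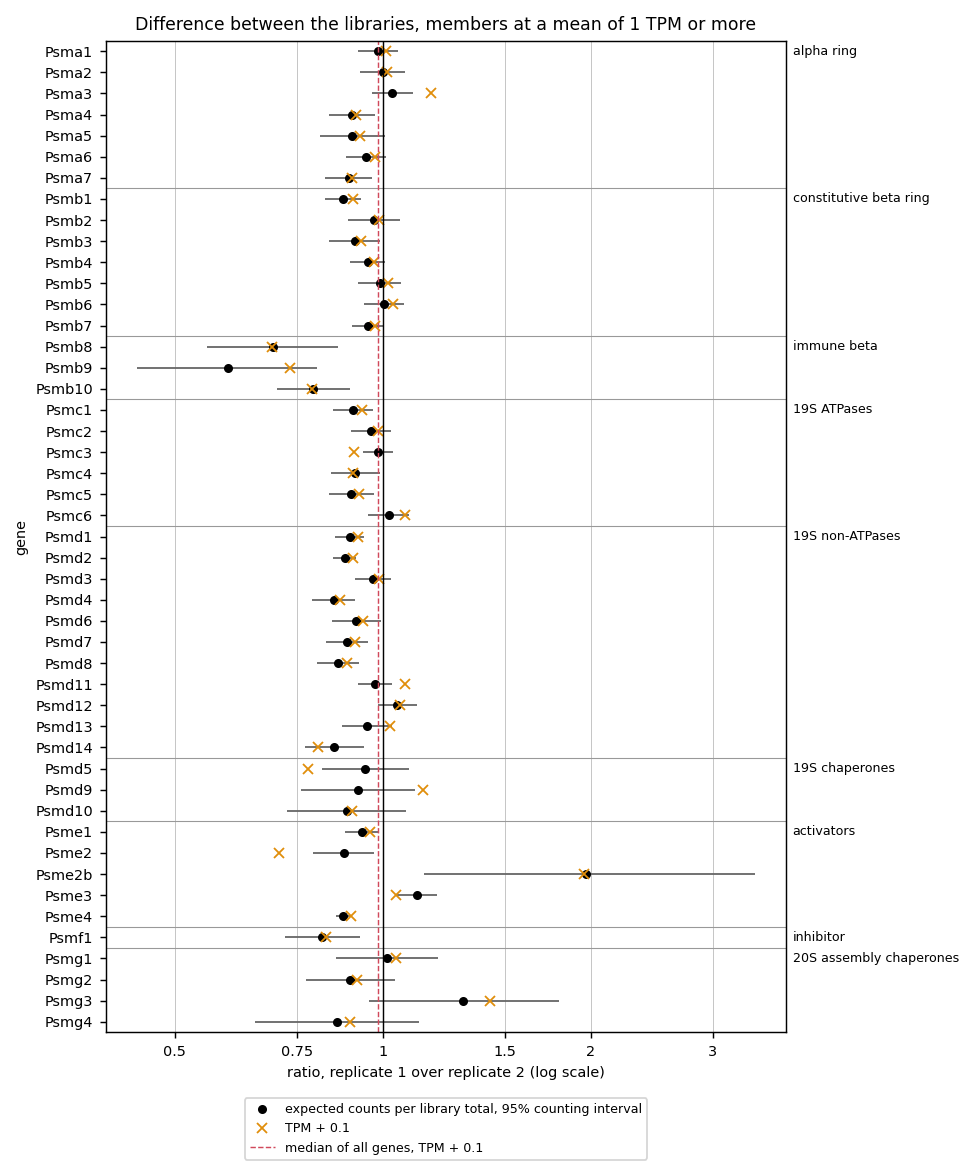
Ratio of replicate 1 over replicate 2 (log scale) for the 47 members at a mean of 1 TPM or more, from expected counts per library total with 95% counting intervals (black) and as TPM plus 0.1 (orange crosses); the dashed line is the median of all genes. The immune subunits Psmb8, Psmb9 and Psmb10 lie at 0.69, 0.60 and 0.79 with intervals below 1, and most other members lie near the line.

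The same libraries had also been quantified in a second way, in a transcript table with the column layout of kallisto, while the gene table has the layout of RSEM. Each table is scaled over all its rows. The median log2 ratio, RSEM layout over kallisto layout, was -0.17 over all genes and -0.23 over the 47 members. Of these members, 40 were lower in the RSEM-layout table, and of all genes 81.2% were, so the members did not stand out. By 1.5-fold or more, 5 of the 47 were lower there, against 9.68% of all genes, and none were higher, against 5.17% of all genes. The 5 were Psmc6, at 0.51 of its kallisto-layout value, Psmd5 at 0.62, Psme1 at 0.65, Psma1 at 0.66 and Psmg4 at 0.66. With both tables rescaled over nuclear protein-coding genes, the median of all genes became 0.17, and that of the members 0.11, so the direction of the shift between the tables turned with the scaling. Of the 47 members 13 were then lower in the RSEM-layout table, and of all genes 25.8%. By 1.5-fold or more Psmc6 was lower, against 2.53% of all genes, and Psmd4 and Psma2 were higher, against 8.07% of all genes. Psmc6 was thus the only member past 1.5-fold in the same direction under both scalings.

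**Figure D4:**
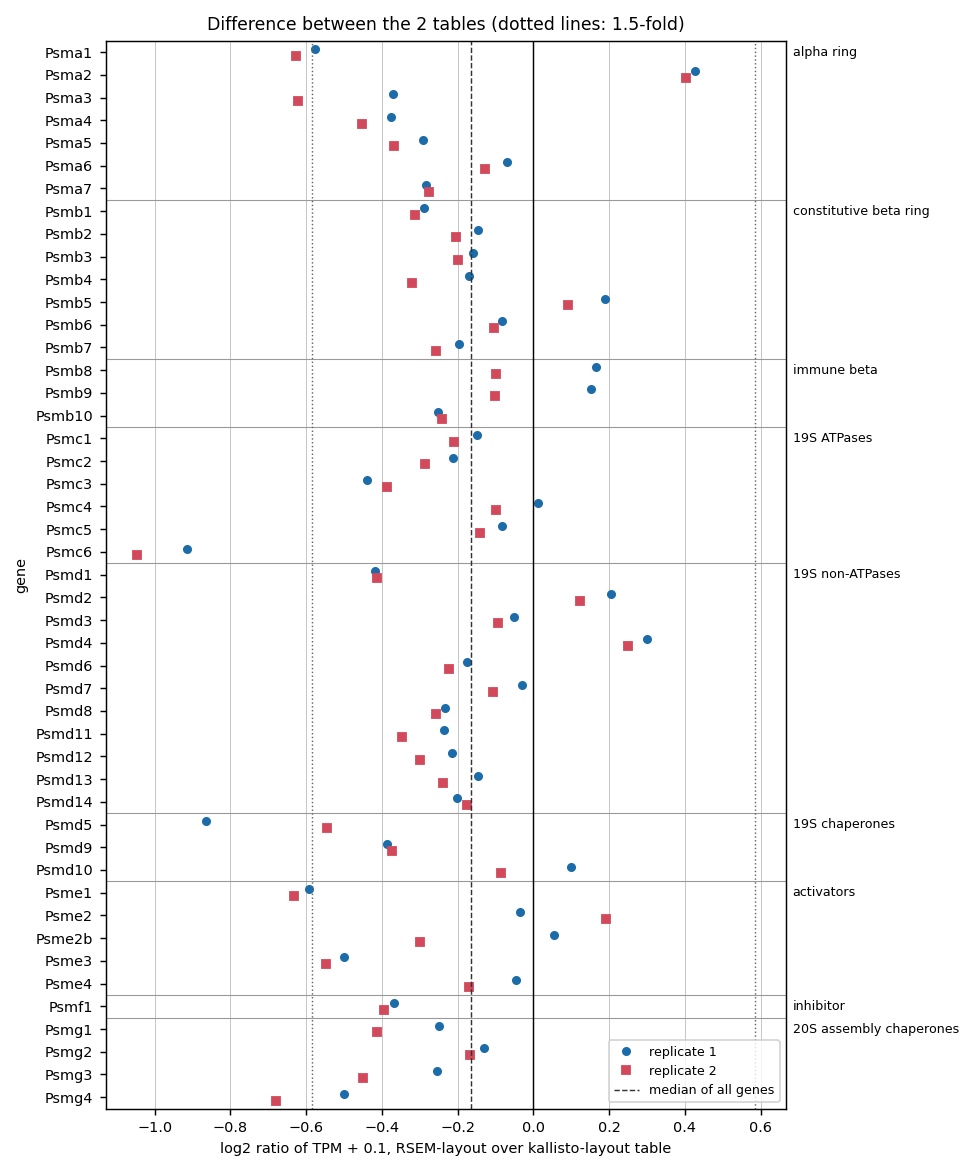
Log2 ratio of TPM plus 0.1, RSEM-layout over kallisto-layout table, for the 47 members in replicate 1 (circles) and replicate 2 (squares), with the median of all genes dashed and 1.5-fold dotted. Most members lie near the dashed line at -0.17, and Psmc6 lies farthest to the left in both libraries.

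For Psmc6 the tables divided the transcripts differently. Its TPM was 41.2 in replicate 1 and 38.2 in replicate 2 in the RSEM-layout table, and 77.7 and 79.1 in the kallisto-layout table. The coding transcript Psmc6-201 took 56.4% of the gene in the RSEM layout and 20.3% in the kallisto layout. Psmc6-208, a short transcript marked for nonsense-mediated decay, took 26.9% and 46.3%, and the intron-retaining Psmc6-203 took 2.70% and 29.4%. Psma3 showed a similar split: its coding transcripts took 53.8% in the RSEM layout, against 17.3% in replicate 1 and 2.40% in replicate 2 in the kallisto layout, in which the decay transcript Psma3-207 took 42.8%. For most members the leading transcript did not change with the table. Of the 47, 39 had 1 and the same leading transcript across the tables, and 41 across the libraries in the RSEM layout. In that layout the median member had 97.5% of its TPM on coding transcripts, and 32 had over 90%. The coding share itself could differ in the kallisto layout. For Psmc4 it was 94.1% in the RSEM layout, against 55.4% and 59.0% in replicates 1 and 2 in the kallisto layout. For Psme2 it was 58.7%, against 84.1% and 80.7%.

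**Figure D5:**
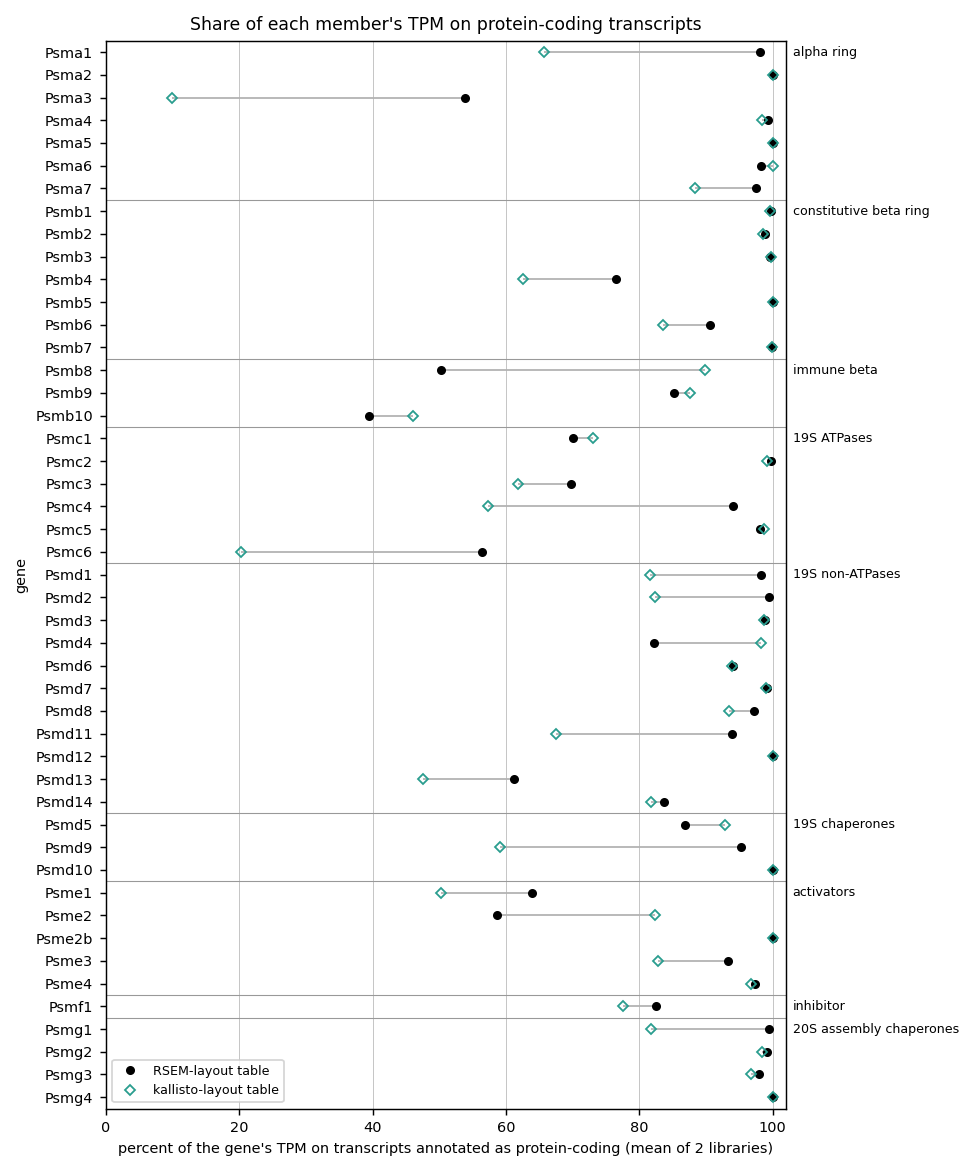
Percent of each member's TPM on transcripts annotated as protein-coding, mean of both libraries, in the RSEM-layout table (black) and the kallisto-layout table (green), for the 47 members at a mean of 1 TPM or more. Most black points lie over 90%, and that of Psmb10 lies at 39.4%. Psma3, Psmc4, Psmc6 and Psmb8 are among the members with wide gaps between the tables.

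The immune and constitutive levels held in the second table. Its mean log2 ratios were -3.31 for Psmb8 over Psmb5, -4.44 for Psmb9 over Psmb6 and -1.86 for Psmb10 over Psmb7, and the immune subunits made up 11.7% of the catalytic TPM in replicate 1 and 14.8% in replicate 2. The ratios over the whole core and over the ATPases were wider in it. The highest constitutive core subunit was 6.32 times the lowest in replicate 1 and 6.55 times in replicate 2, and the highest ATPase 4.14 and 3.69 times. The ratio over the non-ATPase subunits was narrower, at 2.72 and 2.61 in replicates 1 and 2, against 3.61 and 3.21 in the gene table. Psme1 also stood farther above Psme2 there, at 3.89-fold in replicate 1 and 3.45-fold in replicate 2.

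Members share little by position. They are spread over 16 chromosomes, with 10 on chromosome 11, and only 3 pairs of members lie within 20 kb of each other: Psmb5 and Psmb11, Psme1 and Psme2, and Psmb9 and Psmb8. Shared sequence was more common: 10 members had over 10% of their 31-nt stretches in another annotated gene, while 23 had under 1%. After Psme2b, Psmb5 and Psma5 the highest shares were those of Psme2 (33.5%), Psmc1 (32.2%) and Psmd2 (31.6%), the last mostly in Gm5422. For these genes the level depends on how the quantification divided shared reads.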

How the data were processed

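Expected counts and TPM per gene and per transcript were deposited by the authors in tables with the column layout of RSEM, and a second transcript table with estimated counts and TPM in the layout of kallisto, per the file headers. All refer to mm10 and GENCODE M21, per the deposited readme; programs, versions and strand setting: not given in the sources used here. The authors also deposited an isoform percent, how much of a gene's TPM falls on each transcript. TPM are scaled over all rows, spike-ins and mitochondrial genes included. Annotated length exceeded effective length by 99 nt in the RSEM layout and by 325 and 322 nt in the kallisto layout.

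From these, transcripts of the kallisto-layout table were summed per gene, log2(TPM + 0.1) was used for ratios, and a pair counts as different where its ratios in both libraries share a sign and exceed the gap between the libraries. Genes at a mean of 1 TPM or more entered the library and table comparisons. Single count ratios have exact 95% intervals from the conditional binomial distribution, which leave out all but counting error because reads of 1 molecule can repeat. Log2 ratios of counts were tested on simulated data with large known changes only. The intervals, the TPM ratios and changes as small as those of most members between the libraries were not tested in this way. Distinct 31-nt words of each member's transcripts were looked up in all GENCODE transcripts of other genes, on the transcript strand only. Proteins were aligned globally from GENCODE coding sequences. The members, roles and lists were chosen with earlier results of these data known. Named are all core subunits, activators and low members, the extremes of each other role, and members apart between libraries or tables; other genes named were chosen after their values were seen. One symbol of the cap partner list was not analysed here. One gene of the interferon list and 2 of the 4 motifs searched are not reported here. Python 3.11.15, pandas 2.3.3, numpy 2.4.6, SciPy 1.17.1 and matplotlib 3.10.9 were used.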

Additional observations from a re-analysis of the deposited data

How the results depend on the processing

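Immune subunits stayed below their constitutive counterparts under every alternative tried (second table, posterior mean TPM, pseudocount of 1, coding transcripts alone, either library alone). With coding transcripts alone, in the RSEM layout, the log2 ratio moved to -4.38 for Psmb8 over Psmb5 and to -3.21 for Psmb10 over Psmb7. The immune share of the catalytic TPM, 12.6%, was 6.52% on coding transcripts alone in the RSEM layout. The median log2 ratio between the tables over members, RSEM layout over kallisto layout, was -0.23 and turned to 0.11 with both rescaled over nuclear protein-coding genes, and members lower in the RSEM layout numbered 40 and then 13. Members higher in replicate 1 numbered 14, against 5 in the kallisto-layout table, 9 with TPM rescaled over nuclear protein-coding genes and 8 with counts per total; the cause was not tested. Members 1.5-fold or more apart between tables numbered 5, against 3 after rescaling, and 3 to 5 with either library alone, the lower number without replicate 2. The ratio of the highest over the lowest core subunit was 6.44 in the kallisto-layout table, and that of the ATPases 3.91 there and 2.97 with posterior mean TPM. The number of members at 1 TPM or more was 47, against 48 at 0.5 TPM and 44 at 5 TPM. The order of role medians changed with the table: the alpha ring was below the constitutive beta ring in the gene table (54.2 and 68.0 TPM) and above it in the kallisto-layout table (67.6 and 63.8 TPM), and activators were above the ATPases in the gene table (47.0 and 40.1 TPM) and below them in the kallisto-layout table (49.4 and 52.6 TPM). Without a pseudocount 1 member, against 0, was 2-fold or more apart between libraries. The coding-only share, the rescaled table ratio and the pseudocount of 0 were chosen after seeing the data. Depth limits low members such as Psma8, Psme2b and Psmb9. No paired analysis was possible because the series has 1 group and no test.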
